A study of Mus musculus with 96 samples.

Results

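Mitochondrial ribosomal protein genes were followed in mouse liver under short-term calorie restriction. A gene was taken as a member when its annotated symbol began with Mrpl or Mrps followed by a number and it was not a pseudogene, so no measured value entered the choice. The array held 76 such genes with a probe set annotated to them alone, out of 14816 genes tested, and all 76 passed the filter on low signals. By symbol, 47 belonged to the large subunit (Mrpl) and 29 to the small subunit (Mrps). The 29 include Mrps36, whose product is known as a part of the 2-oxoglutarate dehydrogenase complex and not of the ribosome. Mrpl30 and Mrpl53 were represented only by probe sets that also name another gene and were left out.

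Mitochondria carry their own ribosome, which translates the few proteins encoded by mitochondrial DNA, all of them core parts of the respiratory chain and the ATP synthase. All of its proteins are encoded in the nucleus, made in the cytosol and imported, and they must be matched to ribosomal RNA made inside the organelle. Liver is rich in mitochondria, and lower dosage of mitoribosomal proteins, Mrps5 among them, has been linked to longer life in nematodes and to lifespan differences among mouse lines derived from C57BL/6J and DBA/2J.

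The study measured liver RNA of 96 male mice on 96 single-colour arrays, one mouse on each. There were 5 inbred strains, CBA/J, DBA/2J, C57BL6/J, 129S1/SvImJ and C3H/HeJ, and the hybrid B6C3F1/J, whose parent strains are C57BL6/J and C3H/HeJ. Mice of all groups arrived at 6 weeks of age, were housed singly and first ate a purified diet at 84 kcal per week, for 2 weeks in all. From 8 weeks of age each strain was split into 8 control mice and 8 mice whose calories were cut by 25%, and livers were taken at 22 weeks of age. The labels name no transgene or deletion, and no females were studied. Whole liver was profiled, so fewer cells of a type and less RNA per cell cannot be told apart.

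All values are log2 MAS5 signals, on which a difference of 1 is a 2-fold difference, and levels of different genes were not compared because each probe set has its own sensitivity. Hepatocyte markers were bright in every group, with a summed signal of 17.05 to 20.39 in C57BL6/J and CBA/J, the strains with the lowest and highest values. The median signal of an array lay between 6.21 and 7.50 on 94 arrays. The remaining 2 arrays had far higher medians. DBA/2J restricted replicate 6 had a median of 8.29 and a mean signal over the 76 members of 10.21. B6C3F1/J control replicate 2 had a median of 8.66 and a member mean of 9.51, the lowest of all. All other arrays had a member mean between 10.74 and 11.71. Restricted CBA/J mice had a mean array median of 7.29, against 6.52 in CBA/J controls, and the median difference over all genes was 0.31 there. The summed hepatocyte markers were 1.76 higher there, cholangiocyte markers 1.33, lymphocyte markers 1.39, neutrophil markers 1.09 and the 1 pancreas acinar marker 1.82 higher. Sums of dim markers were among these. The control medians were 8.04 for cholangiocyte, 7.82 for lymphocyte, 8.00 for neutrophil and 5.54 for pancreas markers. Whether they followed the array median was not tested. Kupffer cell (0.43), endothelial (0.29), red blood cell (0.17) and stellate cell markers (-0.11) differed less. The 1 adipocyte marker differed by 0.36 in its mean, while its median went from 5.26 to 4.13. On DBA/2J restricted replicate 6 the Gapdh 3' probe set exceeded the 5' one by 2.51, a sign of RNA quality that lay between -0.54 and 0.25 on the 94 arrays. It averaged -0.03 in restricted CBA/J mice and -0.40 in CBA/J controls. Because these arrays stand apart, counts of members called are also given without the 2 arrays of high median, and the averaged diet effect and its strain differences without CBA/J.

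**Figure D1:**
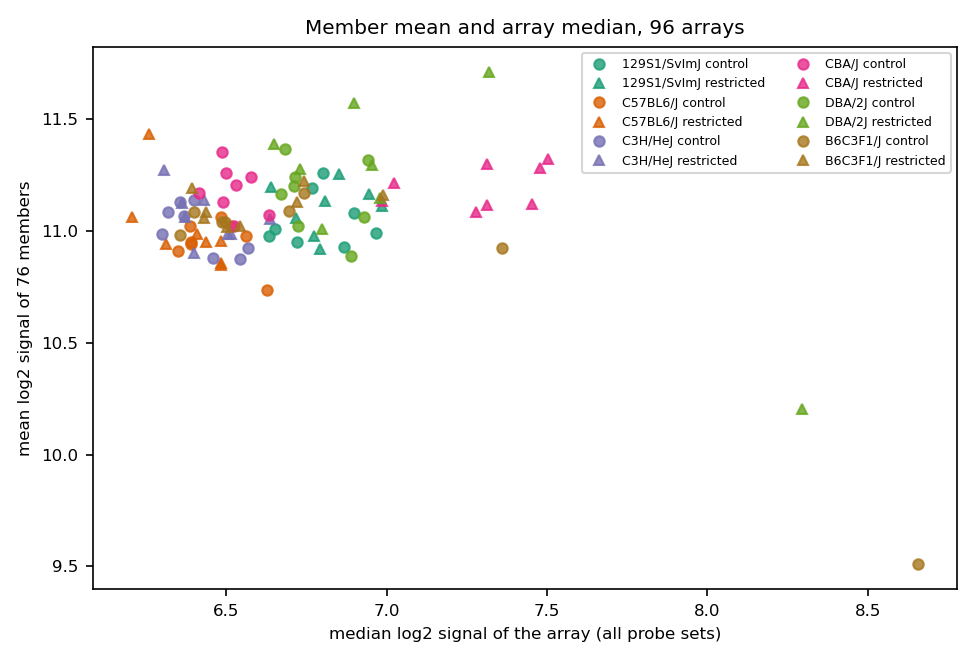
Mean log2 signal of the 76 members (vertical axis) against the median log2 signal of all probe sets (horizontal axis), 1 point for each of 96 arrays, coloured by strain with circles for control and triangles for restricted. The 2 arrays with a median above 8 lie at the bottom right, at member means of 10.21 and 9.51.

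Averaged over the 6 strains, calorie restriction raised 20 members and lowered 6 at an adjusted p under 0.05 (limma). Over all genes tested, 15.2% rose and 12.4% fell, against 26.3% and 7.89% of the members. Many of those genes were dimmer than the members. With a stricter filter (48 arrays) the members kept the same 20 and 6 calls, and 19.6% of all genes rose and 17.8% fell. The median difference of the members was 0.08 and that of all genes 0.07, and 55 of 76 members lay above 0, against 60.1% of all genes. The changes were divided between subunits, with 11 of 47 large-subunit genes raised and 3 lowered, and 9 of 29 genes with a small-subunit symbol raised and 3 lowered (8 and 3 of 28 without Mrps36). Single genes differed in both directions, from -0.31 to 0.51. Without CBA/J, 16 members rose and 2 fell (9.36% and 8.11% of all genes), of which 15 of the 20 and 2 of the 6 were the same genes. Without the 2 arrays of high median, 27 rose and 11 fell (18.7% and 15.1% of all genes), and these held all 26 of the original calls. The counts also moved with the scaling and the probe set. They were 13 and 3 after centring on the 75th percentile (12.4% and 11.6% of all genes). The array median as covariate gave 34 and 3 (17.2% and 11.9%). In CBA/J that median ran from 6.42 to 6.63 in controls and from 6.99 to 7.50 in restricted mice. This fit therefore cannot tell the array median from the diet in that strain. The second brightest probe set of each gene that has several gave 11 and 7 (11.7% and 11%). With that probe set 10 of the 20 and 3 of the 6 were called in the same direction, and 5 of the 26 had the opposite sign, none of them called.

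**Figure D2:**
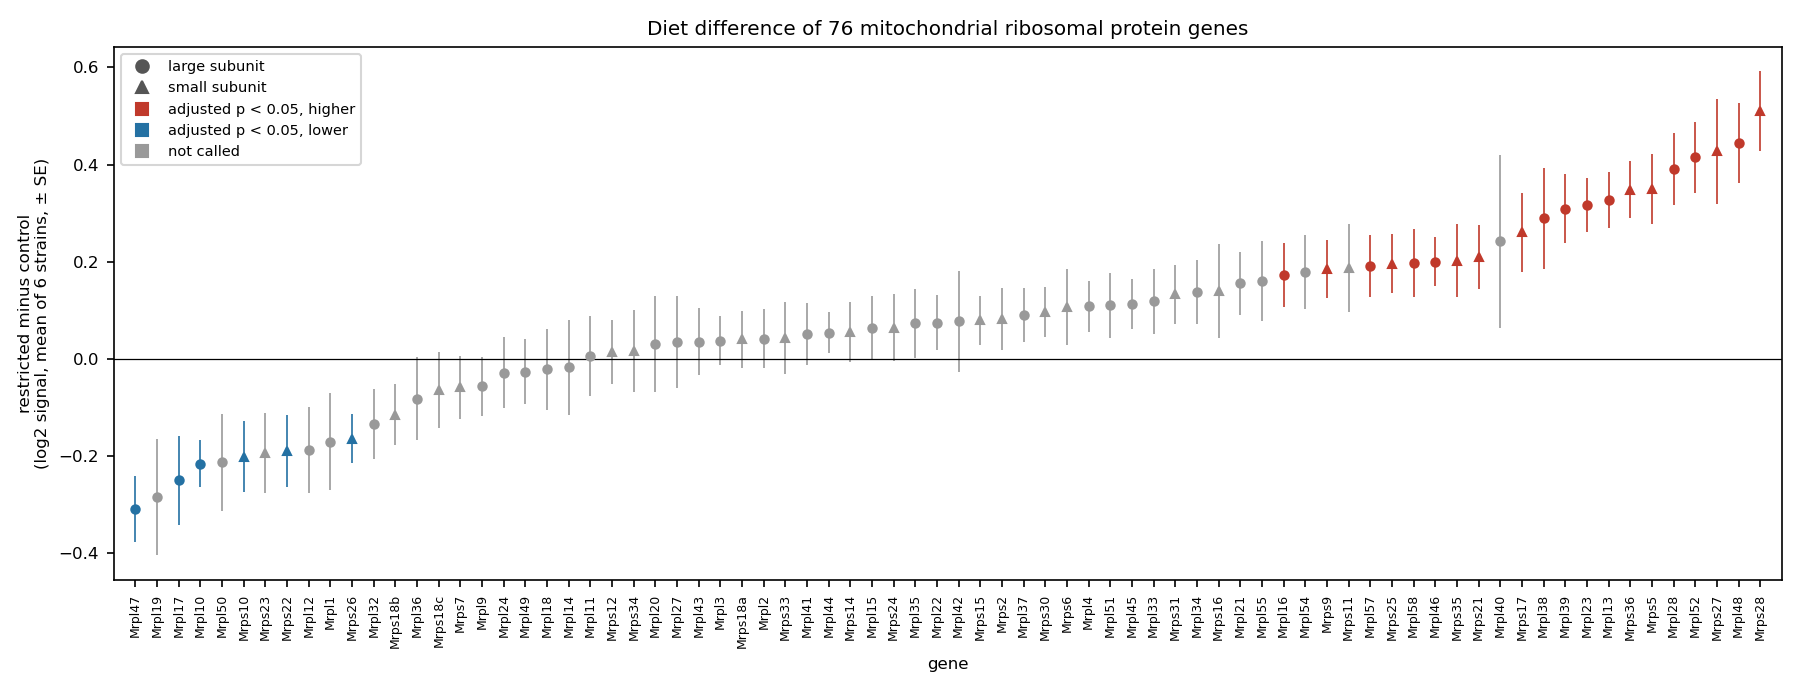
Restricted minus control log2 signal averaged over 6 strains (vertical axis, bars are SE) for each of 76 members (horizontal axis, in order of the difference), with circles for the large and triangles for the small subunit. The 20 raised members are red and reach 0.51 in Mrps28, the 6 lowered members are blue and reach -0.31 in Mrpl47, and 50 members are grey.

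Among the large-subunit genes, Mrpl48 rose most. Its signal ranged from 9.14 to 11.76 with a median of 10.87 on 48 control arrays, and from 9.92 to 12.26 with a median of 11.35 on 48 restricted arrays. The ranges overlapped, but 37 of 48 restricted arrays were above the control median, and all 6 strain means moved up, by 0.23 to 0.68. The averaged difference was 0.44 ± 0.08 (SE, adjusted p = 8.05e-06), and the second brightest probe set was also called higher on average. In CBA/J, where the brightest gave 0.68, that second probe set gave -0.25 and did not pass (adjusted p = 0.183). In B6C3F1/J the difference was 0.64 with all arrays and 0.36 without those of high median, where it did not pass.

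Mrpl52, a large-subunit gene specific to mitochondrial ribosomes, had a control median of 11.27 (10.29 to 12.26) and a restricted median of 11.78 (10.80 to 12.81). The difference of 0.41 ± 0.07 (adjusted p = 2.86e-06) was spread unevenly over strains, from 0.02 in 129S1/SvImJ to 0.92 in CBA/J. Other bright probe sets of this gene gave 0.07 ± 0.08 and 0.18 ± 0.06, of which the first did not pass the test.

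Mrpl28, the counterpart of a bacterial large-subunit protein, went from a control median of 10.87 (8.39 to 11.50) to a restricted median of 11.21 (10.45 to 12.50), and 41 of 48 restricted arrays exceeded the control median. Its difference was 0.39 ± 0.07 (adjusted p = 1.15e-05), and 3 separate probe sets of the gene gave 0.39, 0.40 and 0.36. All 3 passed the test.

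Mrpl13, which also has a bacterial counterpart, rose by 0.33 ± 0.06 (adjusted p = 2.96e-06), from a control median of 11.95 (10.74 to 12.46) to a restricted median of 12.30 (11.64 to 13.20). Here the probe sets disagreed, since the second brightest gave -0.20 ± 0.08 and did not pass the test. When probe sets of a gene were averaged instead of taking the brightest, Mrpl48, Mrpl52 and Mrpl13 did not pass.

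Mrpl23, a protein that sits near the exit of the peptide tunnel, was the most even across strains and was picked out after its values were seen. Its control median was 11.55 (10.77 to 11.98) and its restricted median 11.84 (11.06 to 12.86). The strain differences lay between 0.24 and 0.42 in all 6 strains, and the average was 0.32 ± 0.06 (adjusted p = 3.19e-06). The test of a strain difference in its diet effect gave an adjusted p of 0.98.

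The small-subunit gene Mrps28 had the largest rise of all members. Control arrays ranged from 9.93 to 12.27 with a median of 11.21, and restricted arrays from 10.72 to 12.93 with a median of 11.63. Restricted arrays were above the control median in 41 of 48 mice, and the averaged difference was 0.51 ± 0.08 (adjusted p = 3.81e-07). In 5 strains the difference was between 0.53 and 0.81, whereas in CBA/J it was -0.28. Without CBA/J the difference was 0.67 ± 0.09.

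Mrps27, an RNA-binding protein of the pentatricopeptide repeat type, rose by 0.43 ± 0.11 (adjusted p = 0.00123). Its control median was 8.42 (4.29 to 9.19) and its restricted median 8.83 (7.83 to 9.53), with 43 of 48 restricted arrays above the control median. The lowest control value, 4.29, came from B6C3F1/J control replicate 2, and without the 2 arrays of high median the difference was 0.36.

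Mrps5, a core protein of the small subunit with a bacterial counterpart, rose by 0.35 ± 0.07 (adjusted p = 6.29e-05). Its control median was 10.09 (8.49 to 11.08) and its restricted median 10.39 (9.72 to 11.14), with 37 of 48 restricted arrays above the control median. The strain differences were 0.82 in B6C3F1/J, 0.65 in CBA/J and 0.45 in 129S1/SvImJ, but 0.12 in C57BL6/J and 0.03 in both C3H/HeJ and DBA/2J. In CBA/J the second brightest probe set of Mrps5 gave 0.21 and did not pass the test (adjusted p = 0.347). It gave 0.50 in B6C3F1/J and did not pass there either.

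Mrps36 rose by 0.35 ± 0.06 (adjusted p = 1.1e-06), from a control median of 10.44 (9.60 to 11.25) to a restricted median of 10.70 (10.05 to 11.57). The complex its product belongs to works in the citric acid cycle. The remaining 12 raised members, Mrpl23 among them, differed by 0.17 to 0.32.

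The 6 lowered members were led by Mrpl47, a large-subunit protein. Its control median was 10.59 (9.88 to 11.58) and its restricted median 10.30 (9.53 to 11.26), and 40 of 48 restricted arrays lay below the control median. It was lower in all 6 strains, by values from -0.14 in DBA/2J to -0.46 in B6C3F1/J, with an average of -0.31 ± 0.07 (adjusted p = 0.00015). Without CBA/J it was -0.32 and also passed the test.

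Mrpl17, with a bacterial counterpart, fell by an average of -0.25 ± 0.09 (adjusted p = 0.0322), from a control median of 12.76 (10.43 to 13.53) to a restricted median of 12.52 (10.19 to 13.96). Without CBA/J its difference was -0.32 and also passed the test. It did not pass after centring on the 75th percentile, and its second brightest probe set gave 0.11.

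The stalk protein Mrpl10, which carries Mrpl12 at the site where translation factors bind, went from a control median of 11.11 (10.05 to 11.34) to a restricted median of 10.93 (9.61 to 11.34). The averaged difference was -0.22 ± 0.05 (adjusted p = 0.000249), but it was -0.88 in CBA/J and between -0.19 and 0.14 in the other strains. Without CBA/J it was -0.08 ± 0.05 (adjusted p = 0.317).

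The small-subunit genes Mrps10 (-0.20 ± 0.07), Mrps22 (-0.19 ± 0.07) and Mrps26 (-0.16 ± 0.05) also fell. Without CBA/J their differences were -0.16, -0.11 and -0.13 and did not pass, at adjusted p of 0.175, 0.454 and 0.0979. Without CBA/J and the arrays of high median Mrps26 was at -0.16 and passed (adjusted p = 0.0045). Mrps22 is specific to mitochondrial ribosomes and is mutated in a human mitochondrial disease. Mrpl12 itself, which besides its place in the stalk binds the mitochondrial RNA polymerase, differed by -0.19 ± 0.09 and did not pass (adjusted p = 0.109), but it was -0.20 and passed without the arrays of high median (adjusted p = 0.028).

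Mrpl3, Mrpl44 and Mrps16 are, like Mrps22 and Mrps28, mutated in human mitochondrial disease, and these 3 did not pass the test. Mrpl3 differed by 0.04 ± 0.05, Mrpl44 by 0.05 ± 0.04 and Mrps16 by 0.14 ± 0.10. Without the arrays of high median Mrps16 was at 0.19 and passed (adjusted p = 0.00139). Mrps12, part of the decoding centre, differed by 0.01 ± 0.07. For Mrpl44 the second brightest probe set gave -0.26 ± 0.07 (adjusted p = 0.00181 over all probe sets), opposite in sign to the brightest one. Of 38 members with several kept probe sets, 7 had more than 1 called for the average diet difference and 0 had calls in opposite directions.

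**Figure D3:**
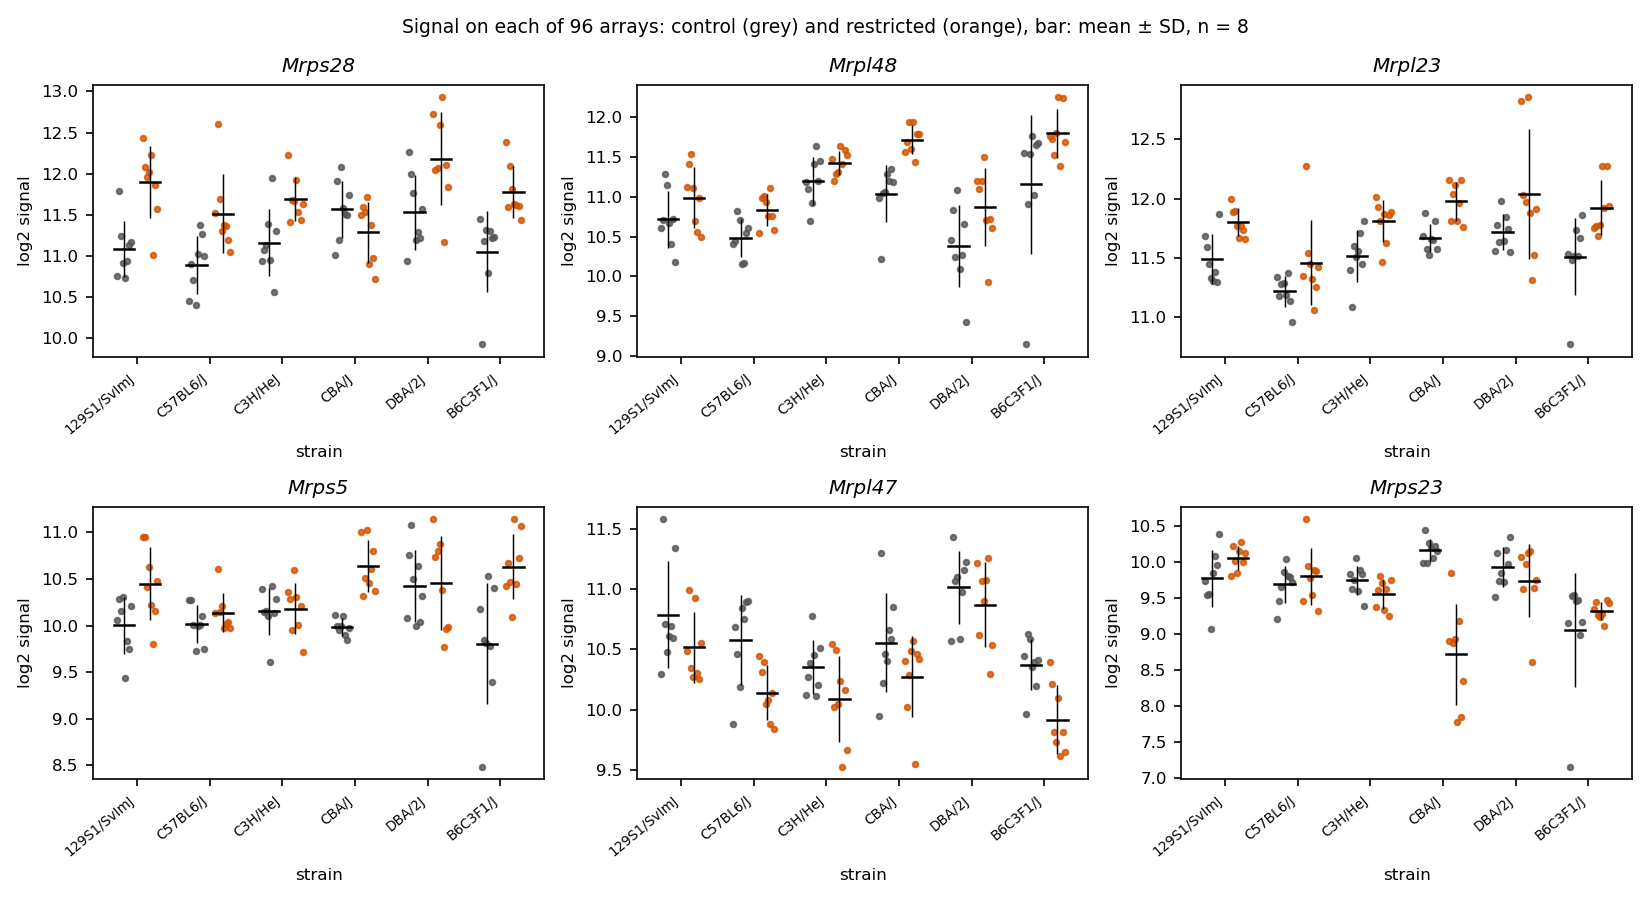
Log2 signal on each of the 96 arrays (vertical axis) by strain (horizontal axis) for 6 members, grey for control and orange for restricted, with the mean and SD of 8 mice. Mrps28 is higher under restriction in 5 strains and lower in CBA/J, Mrpl23 is higher in all 6 by 0.24 to 0.42, Mrpl47 is lower in all 6, and Mrps23 is lower in CBA/J alone by a clear margin, -1.45.

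The rest of the mitochondrial translation machinery also held calls in both directions, and each count below stands against the 15.2% of all genes that rose and the 12.4% that fell. Of 5 mitoribosome parts listed under other symbols, Dap3, a GTP-binding small-subunit protein, rose by 0.40 ± 0.08 and none fell, and the median of the 5 was 0.12. Of 11 translation factors 2 rose and 3 fell, with a median of -0.03. The elongation factors Tufm (0.53 ± 0.07) and Gfm1 (0.27 ± 0.06) rose, while Pdf (-0.27 ± 0.05), which removes the formyl group of new peptides, Mtrf1l (-0.40 ± 0.11), a release factor, and Mtif2 (-0.18 ± 0.06), an initiation factor, fell.

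Of 28 assembly factors of the mitoribosome 6 rose and 5 fell (median -0.04). Mpv17l2, needed for assembly, rose by 0.38 ± 0.08, and the GTPase Gtpbp10 (-0.45 ± 0.07) and Rcc1l (-0.56 ± 0.13) fell. Of 18 tested mitochondrial aminoacyl-tRNA synthetases and related enzymes 3 rose and 5 fell (median -0.04), with Fars2 for phenylalanine at 0.82 ± 0.14 and Ears2 for glutamate at -0.53 ± 0.08. Of 20 genes of mitochondrial DNA and RNA synthesis 2 rose and 3 fell (median -0.04), with the polymerase subunit Polg2 at 0.46 ± 0.04, the DNA-binding protein Ssbp1 at -0.60 ± 0.10 and Trmt10c, of the RNase P complex, at -0.66 ± 0.12. Of 13 genes of the mitochondrial unfolded protein response 2 rose and 2 fell (median 0.07), among them its transcription factor Atf5 at -0.84 ± 0.10.

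Of 11 regulators of nuclear genes for mitochondria 2 rose and 3 fell (median 0.06). The coactivator Ppargc1a rose by 0.47 ± 0.09 and the nuclear receptor Esrra by 0.24 ± 0.05. Yy1 (-0.43 ± 0.07), Gabpa (-0.37 ± 0.07), the DNA-binding subunit of NRF2, and Creb1 (-0.34 ± 0.08) fell. The diet effect differed between strains (adjusted p under 0.05 for the interaction) for all 5 of these regulators and, among the genes named above, for Ssbp1, Trmt10c, Atf5, Gtpbp10 and Mtif2. Mtrf1l, Mtif2, Esrra and Creb1 are named although chosen after their values were seen.

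Promoters of the members were searched for the letters bound by 3 of these regulators, in windows from 250 bases before to 50 bases after the start (RefSeq, build GRCm38.p6, 67 of 76 members matched by symbol, with 73 promoters). On either strand, the ETS core bound by Gabpa (CCGGAAG) was found in 25 of the 73 promoters (34.2%) and in 8.86% of all 32851 promoters in the table. The NRF1 palindrome was in 3 (4.11%), against 0.971% of all. The YY1 letters (AAGATGGCG) were in 8 (10.96%), against 1.40% of all. In 0 promoters did letters of different motifs share bases, and 2 member promoters held more than 1 motif. The ETS core was in 6 of 16 raised members with an entry, in 3 of 6 lowered members and in 16 of 45 members that were not called. The NRF1 palindrome was in 1, 0 and 2 of these, and the YY1 letters in 1, 0 and 7, and no test was made of these counts. Such matches describe the letters only. Printed here are the 150 bases before the start of 6 members with a single entry, chosen as examples of each motif after their values were seen, with its letters in capitals. Capitals in Mrps27 and Mrpl52 mark the ETS core read on the opposite strand (CTTCCGG), in Mrpl39 and Mrpl32 the NRF1 palindrome, and in Mrps11 and Mrpl36 the YY1 letters on the opposite strand (CGCCATCTT).
Mrps27, chr13:99344636-99344785, plus strand: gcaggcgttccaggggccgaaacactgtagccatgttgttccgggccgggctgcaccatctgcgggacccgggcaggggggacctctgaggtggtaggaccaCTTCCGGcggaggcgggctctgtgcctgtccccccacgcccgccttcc
Mrpl52, chr14:54426759-54426908, plus strand: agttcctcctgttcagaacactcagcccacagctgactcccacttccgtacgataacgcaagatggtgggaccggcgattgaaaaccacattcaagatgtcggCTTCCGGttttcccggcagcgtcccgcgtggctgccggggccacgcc
Mrpl39, chr16:84735245-84735394, minus strand: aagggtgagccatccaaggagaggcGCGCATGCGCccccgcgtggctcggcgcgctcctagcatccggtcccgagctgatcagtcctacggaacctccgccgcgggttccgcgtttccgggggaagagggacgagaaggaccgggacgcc
Mrpl32, chr13:14613038-14613187, minus strand: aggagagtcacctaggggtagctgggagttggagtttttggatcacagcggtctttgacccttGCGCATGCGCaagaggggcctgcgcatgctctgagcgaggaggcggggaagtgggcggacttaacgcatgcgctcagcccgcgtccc
Mrps11, chr7:78782981-78783130, plus strand: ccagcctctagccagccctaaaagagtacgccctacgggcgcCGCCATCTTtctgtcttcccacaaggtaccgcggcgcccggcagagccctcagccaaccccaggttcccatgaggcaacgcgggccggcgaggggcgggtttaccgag
Mrpl36, chr13:73330859-73331008, plus strand: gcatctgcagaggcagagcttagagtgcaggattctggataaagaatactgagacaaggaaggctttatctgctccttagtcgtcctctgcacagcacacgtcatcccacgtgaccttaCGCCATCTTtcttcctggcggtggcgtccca
The letters began 48 bases before the start in Mrps27, 47 in Mrpl52, 125 in Mrpl39, 87 in Mrpl32, 108 in Mrps11 and 31 in Mrpl36. Of these 6, Mrps27, Mrpl52 and Mrpl39 (0.31 ± 0.07) rose under restriction, and Mrpl32 (-0.13 ± 0.07), Mrps11 (0.19 ± 0.09) and Mrpl36 (-0.08 ± 0.09) did not pass the test. Mrpl36 was at -0.15 and passed without the arrays of high median (adjusted p = 0.00579).

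Within single strains the most members passed in CBA/J. In 129S1/SvImJ 3 members rose (2.79% of all genes) and 0 fell (2.47% of all genes). At an unadjusted p under 0.05 the counts were 7 and 0 (8.77% and 6.88% of all genes). With the arrays of high median left out, 4 rose and 0 fell (5.14% and 4.23% of all genes). The 3 raised with all arrays were Mrps28, Mrps36 and Mrps35. Mrps28 rose there by 0.81 ± 0.20 (adjusted p = 0.00509) and Mrps36 by 0.53 ± 0.14.

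Mrps35, a small-subunit protein specific to mitochondria, separated the diets fully in 129S1/SvImJ. Its 8 control mice lay between 10.23 and 10.57 (median 10.53) and its 8 restricted mice between 10.75 and 11.34 (median 11.05), a difference of 0.58 ± 0.18 (adjusted p = 0.0452). This call did not hold in most other settings, with an adjusted p of 0.248 after quantile normalization, 0.275 after centring on the 75th percentile and 0.0557 without the filter. After that centring none of the 3 genes passed in this strain.

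In C57BL6/J 0 members rose and 0 fell (1.86% and 1.85% of all genes). At an unadjusted p under 0.05 the counts were 5 and 2 (6.35% and 6.21%). In C3H/HeJ the counts were also 0 and 0 (1.10% and 0.850% of all genes), and 3 and 2 at an unadjusted p under 0.05 (5.22% and 4.81%). Without the 2 arrays of high median 5 members rose and 1 fell in C57BL6/J (3.64% and 3.56% of all genes). In C3H/HeJ 1 rose and 1 fell without them (2.23% and 1.87%). With all arrays Mrpl28 in C57BL6/J came closest, at 0.56 ± 0.18 (adjusted p = 0.061).

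In DBA/2J 9 members rose and 1 fell, against 2.30% and 4.45% of all genes, and the median over the members was 0.03, as over all genes. Without the array of high median the member median was 0.17, with 59 of 76 above 0, against a median of 0.02 for all genes. Mrpl28 rose by 0.77 ± 0.18 (adjusted p = 0.00255), from a control median of 10.83 (10.56 to 11.50) to a restricted median of 11.57 (11.15 to 12.50). Mrpl52 rose by 0.73 ± 0.18 (adjusted p = 0.00407) and Mrps36 by 0.71 ± 0.14. For Mrpl52 the second brightest probe set gave -0.17 in this strain (adjusted p = 0.718) and the mean of probe sets 0.24 (adjusted p = 0.501). Without the arrays of high median 15 rose and 1 fell (3.91% and 4.42% of all genes).

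The single fall in DBA/2J was Mrpl50, a large-subunit protein specific to mitochondria, at -0.97 ± 0.24 (adjusted p = 0.00555). Its 8 restricted mice ranged from 6.87 to 11.45 with a median of 10.75, against 10.98 to 11.75 with a median of 11.20 in control mice. The lowest of these values belonged to restricted replicate 6, and without it the difference was -0.48 ± 0.14 (adjusted p = 0.0182). With all arrays the second brightest probe set of Mrpl50 gave -0.68 and did not pass (adjusted p = 0.130).

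In B6C3F1/J 4 members rose and 0 fell (3.35% and 1.26% of all genes). The counts at an unadjusted p under 0.05 were 20 and 1 (11% and 6.85% of all genes). Nearly all members lay on one side, with 71 of 76 above 0 and a median of 0.22, against 50.3% and 0.00 for all genes. This shift rested on 1 array. Without the arrays of high median, of which B6C3F1/J control replicate 2 is one, 49 of 76 were above 0 and the median was 0.05. With those arrays left out, 2 members rose and 0 fell (2.36% and 2.19% of all genes). Mrps5 rose by 0.82 ± 0.18 with all arrays (adjusted p = 0.00123) and by 0.64 ± 0.16 without them (adjusted p = 0.0064). Its control median was 9.83 (8.49 to 10.53) and its restricted median 10.57 (10.10 to 11.14). The call depended on the probe set. With all arrays the second brightest probe set of Mrps5 gave 0.50 in this strain and did not pass. The mean of its probe sets gave 0.33 and did not pass either (adjusted p = 0.434). Mrps27 rose by 0.88 ± 0.27 with all arrays (adjusted p = 0.0341), but by 0.36 ± 0.17 without them (adjusted p = 0.278).

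CBA/J had the most calls, with 12 members raised and 13 lowered, against 25.1% and 15.6% of all genes. Leaving out the arrays of high median gave 21 raised and 20 lowered, against 29.6% and 18% of all genes. The member median was 0.12 and that of all genes 0.31. The split depended on the scaling between arrays. It was 19 raised and 3 lowered after quantile normalization (13.6% and 17.2% of all genes). After centring on the 75th percentile it was 3 raised and 13 lowered (17.8% and 17.6%). Large-subunit genes, which are 47 of the 76 members, made up 10 of the 12 raised and 8 of the 13 lowered.

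Mrps23, a small-subunit gene without a bacterial counterpart, fell most in CBA/J. Its 8 control mice lay between 9.98 and 10.44 with a median of 10.17 and its 8 restricted mice between 7.78 and 9.85 with a median of 8.89. No restricted array reached the lowest control array, and the difference was -1.45 ± 0.20 (adjusted p = 6.17e-09). A second probe set of Mrps23 differed by 0.16 in the same mice and did not pass the test, so the fall was seen by 1 of the brighter probe sets and not by the other.

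Mrpl1, which forms the mobile L1 stalk, fell in CBA/J by -1.19 ± 0.25 (adjusted p = 5.3e-05). The control mice lay between 9.49 and 11.29 with a median of 10.12, and the restricted mice between 8.62 and 9.36 with a median of 8.97. Its second probe set differed by -0.84 and also passed the test. Mrpl10 fell by -0.88 ± 0.12 (adjusted p = 3.32e-09), with control mice at 10.85 to 11.15 and restricted mice at 9.61 to 10.62.

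On the other side Mrpl52 rose in CBA/J by 0.92 ± 0.18 (adjusted p = 1.8e-05), with control mice at 10.66 to 11.76 and restricted mice at 11.80 to 12.41. Mrpl13 rose by 0.73 ± 0.14 (adjusted p = 1.79e-05) and Mrpl46 by 0.71 ± 0.12 (adjusted p = 1.9e-06). Controls and restricted mice did not overlap for either. The probe sets of Mrpl13 disagreed in this strain. Its second brightest one gave -1.41 (adjusted p = 1.85e-08), a call in the opposite direction. The mean of its probe sets gave -0.37 (adjusted p = 0.0462). The markers of other cell types, the Gapdh 3' to 5' difference and the array medians moved with diet in this strain, and their part in these differences was not tested.

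**Figure D4:**
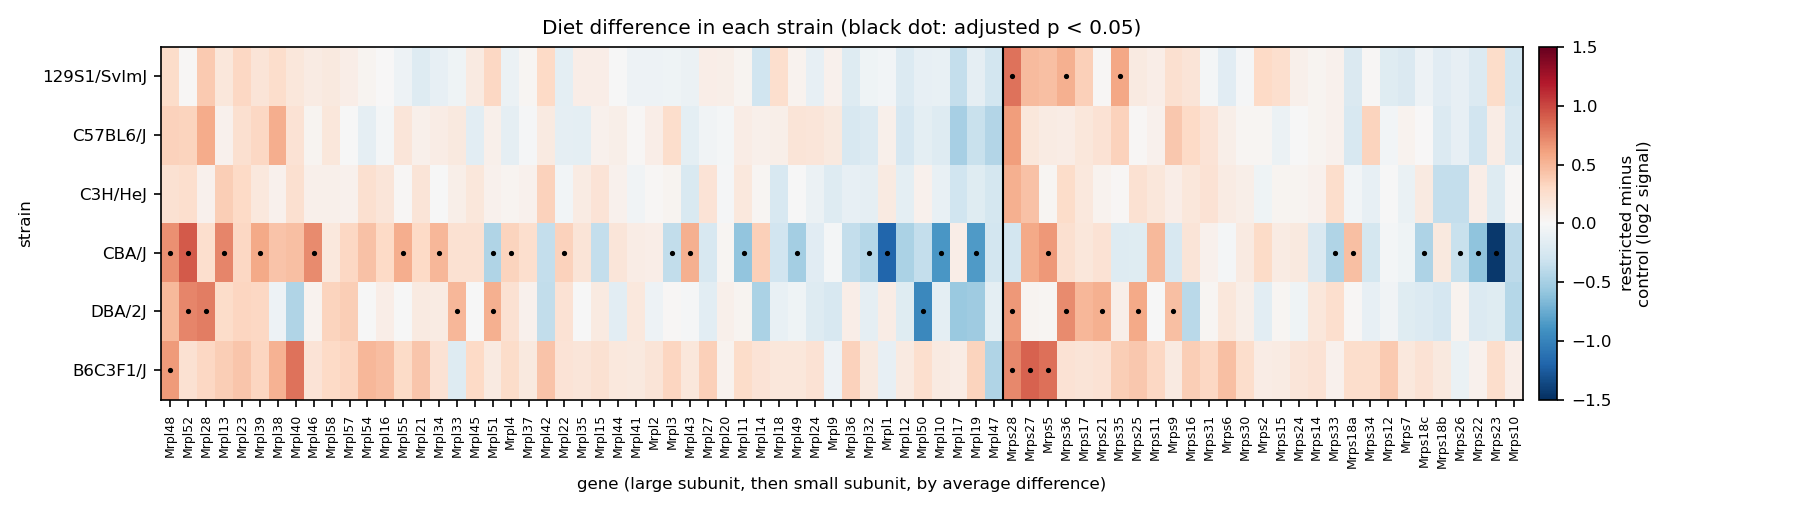
Restricted minus control log2 signal (colour, from -1.5 in blue to 1.5 in red) for 6 strains (vertical axis) and 76 members (horizontal axis, large subunit left of the line and small subunit right of it). Black dots mark an adjusted p under 0.05. CBA/J holds 25 of the dots, and C57BL6/J and C3H/HeJ hold 0.

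Full separation of the 8 restricted from the 8 control arrays was rare outside CBA/J. In CBA/J 7 members lay entirely higher under restriction and 4 entirely lower, against 6.13% and 5.89% of all genes. In 129S1/SvImJ 2 lay higher and 0 lower (0.938% and 1.11% of all genes), and in C57BL6/J 0 higher and 1, Mrpl10, lower (1.18% and 1.31%). No member separated in C3H/HeJ (0.675% and 0.547% of all genes), DBA/2J (0.236% and 0.540%) or B6C3F1/J (1.07% and 0.142%).

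The diet effect differed between strains for 11 members (F test of the interaction, adjusted p under 0.05), against 23.9% of all genes. The smallest adjusted p were those of Mrps23 (3.37e-06), Mrpl10 (4.86e-05), Mrpl46 (0.00999) and Mrpl1 (0.0108), the genes described above in CBA/J. Outside CBA/J the difference of Mrps23 lay between -0.19 and 0.28, that of Mrpl46 between 0.04 and 0.21 and that of Mrpl1 between -0.12 and 0.14. Without CBA/J the interaction was called for 0 members, and without both CBA/J and the arrays of high median for 1. With CBA/J kept and those arrays left out, it was called for 25. Shares of all genes in these fits are not given here, so these changes cannot be read as particular to the members. Not all of the 11 had CBA/J at an end of the order. Mrps5 differed most in B6C3F1/J (0.82) and least in C3H/HeJ and DBA/2J (0.03), with CBA/J at 0.65 between them.

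Strains also differed on the control diet, where 47 of the 76 members passed (F test over 6 strains), against 43.6% of all genes. The large subunit held 28 of them and the small subunit 19. In the fit without the arrays of high median 61 passed, and in that without CBA/J 36. Shares of all genes are not given for these fits, so these 2 counts cannot be read as particular to the members. Probe sequences were not examined here, so whether bases under the probes differ between strains was not tested.

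Mrpl15, with a bacterial counterpart, varied most reliably (adjusted p = 3.88e-09). Its control mean was 11.94 ± 0.32 (SD, n = 8) in 129S1/SvImJ, 12.31 ± 0.19 in C57BL6/J and 12.35 ± 0.72 in B6C3F1/J. It was 12.63 ± 0.27 in C3H/HeJ, 12.90 ± 0.26 in CBA/J and 13.14 ± 0.33 in DBA/2J. The neighbours in this order lay within each other's spread, while 129S1/SvImJ (11.57 to 12.56) and DBA/2J (12.70 to 13.57) did not overlap. Against the mean of the other 5 strains DBA/2J was higher by 0.71 ± 0.12 and 129S1/SvImJ lower, at -0.72 ± 0.12.

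Mrpl27, whose bacterial counterpart reaches toward the catalytic centre, ran from 12.04 ± 0.22 in C3H/HeJ to 13.30 ± 0.42 in DBA/2J (adjusted p = 1.79e-05). The C3H/HeJ mice (11.71 to 12.37) did not overlap with the DBA/2J mice (12.58 to 13.78). Mrpl35 divided the strains differently, with 11.64 ± 0.28 in 129S1/SvImJ and 11.62 ± 0.21 in C57BL6/J against 10.77 ± 0.35 in DBA/2J and 10.86 ± 0.23 in C3H/HeJ (adjusted p = 4.09e-06). Mrpl51 was lowest in DBA/2J at 11.63 ± 0.30 and highest in CBA/J at 12.58 ± 0.22 (adjusted p = 6.5e-06).

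CBA/J stood at an end of the order for 3 more genes. Mrpl44, related to ribonucleases, averaged 11.38 ± 0.21 there and 10.78 to 11.20 in the other strains (adjusted p = 1.38e-06). Mrps26 averaged 10.80 ± 0.13 there and 10.18 to 10.52 elsewhere (adjusted p = 3.09e-05). Mrpl45, which lies at the tunnel exit and helps tie the ribosome to the inner membrane, was lowest there at 9.94 ± 0.16, against 10.36 to 10.75 elsewhere (adjusted p = 4.06e-06). For Mrpl45 no CBA/J control mouse (9.62 to 10.12) reached the lowest of DBA/2J (10.58). Mrpl52, in contrast, was highest in B6C3F1/J at 11.83 ± 0.56 and lowest in C57BL6/J at 10.84 ± 0.32 (adjusted p = 1.0e-04).

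**Figure D5:**
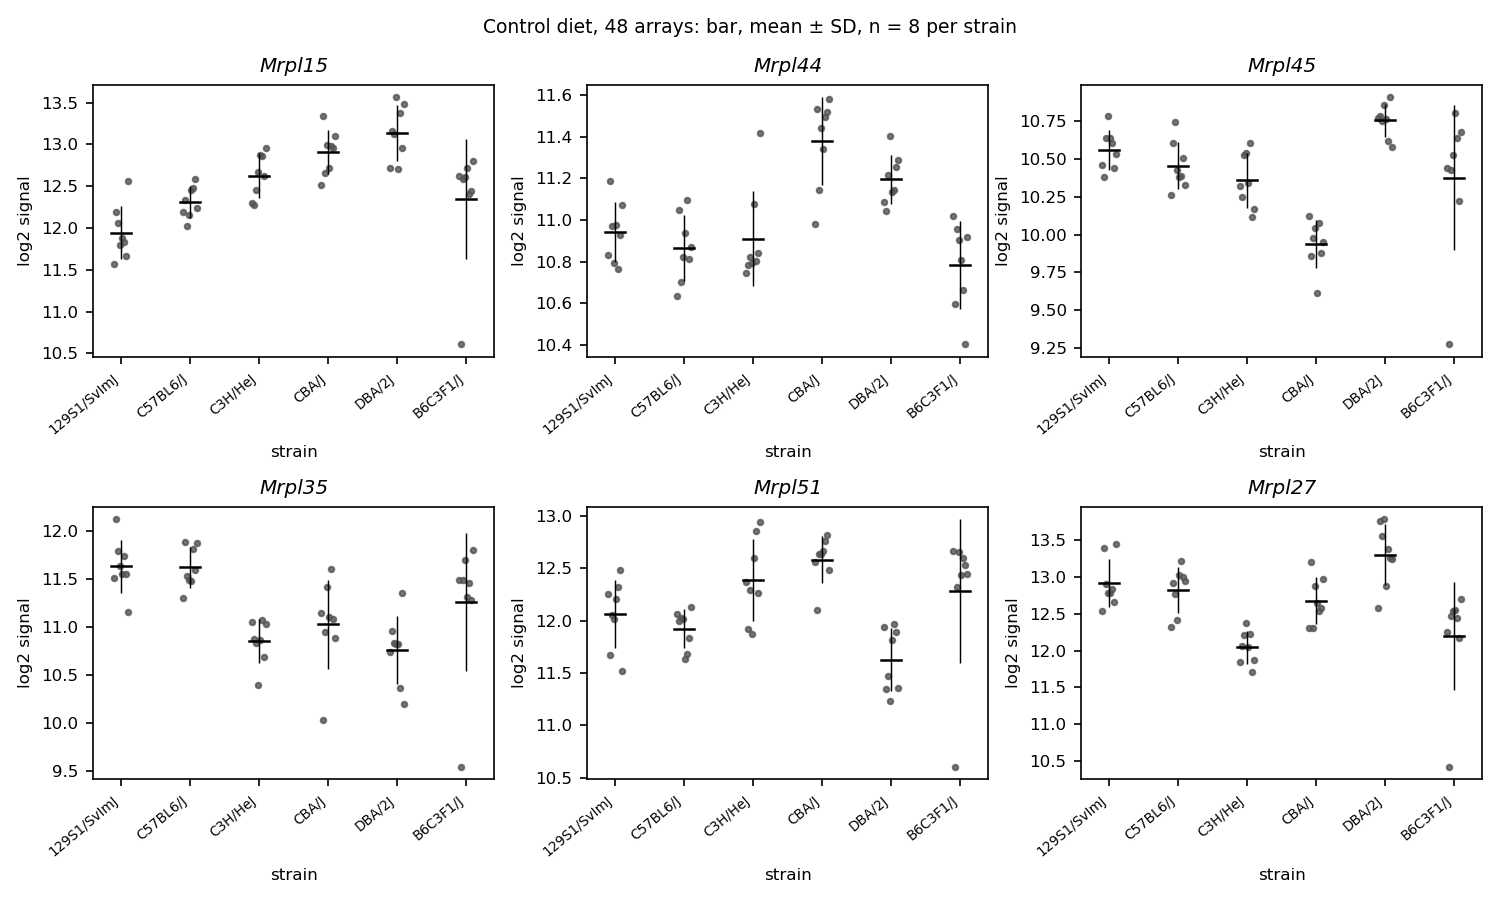
Log2 signal on the 48 control arrays (vertical axis) by strain (horizontal axis) for the 6 members with the smallest p for a strain difference, with the mean and SD of 8 mice. Mrpl15 ranges from a mean of 11.94 in 129S1/SvImJ to 13.14 in DBA/2J, and Mrpl45 is lowest in CBA/J at 9.94.

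Set against the mean of the other 5 strains on the control diet, DBA/2J had 16 members higher and 5 lower (7.25% and 7.36% of all genes), and CBA/J had 10 higher and 1 lower (5.52% and 6.59%). C57BL6/J had 2 higher and 8 lower (8.68% and 7.59%) and 129S1/SvImJ 4 and 4 (6.17% and 6.57%). C3H/HeJ had 0 and 3 (5.83% and 4.18%), with 6 and 6 at an unadjusted p under 0.05 (13.1% and 11.3%). B6C3F1/J had 1 higher and 17 lower (3.48% and 7.67%). Without the arrays of high median the counts were 26 and 6 in DBA/2J (10.8% and 10.9% of all genes) and 16 and 2 in CBA/J (7.8% and 9.91%). They were 3 and 24 in C57BL6/J (10.9% and 11.8%) and 10 and 8 in 129S1/SvImJ (9.21% and 9.83%). C3H/HeJ had 4 and 6 (8.21% and 6.41%) and B6C3F1/J 6 and 7 (5.49% and 4.74%). With and without those arrays, more members were higher than lower in DBA/2J and more were lower than higher in C57BL6/J. With all arrays the 8 lower in C57BL6/J were 10.5% of the members, against 7.59% of all genes. The excess of lower members in B6C3F1/J was not present without those arrays.

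C57BL6/J and DBA/2J are the parents of the mouse lines in which mitoribosome dosage was studied against lifespan. On the control diet 1 member was higher and 10 lower in C57BL6/J than in DBA/2J (6.85% and 6.82% of all genes), and 58 of 76 lay below 0 with a median of -0.23, against -0.06 for all genes. Without the arrays of high median 1 was higher and 27 were lower (9.31% and 11% of all genes). The excess of lower members depended on the probe set. With the mean of probe sets 2 were higher and 5 lower, and with the second brightest probe set 4 and 5. With the array median as covariate more than 10 were lower. Shares of all genes are not given for these 3 settings. Mrpl15 was lower in C57BL6/J by a difference of -0.83 ± 0.16 (adjusted p = 5.14e-05). Mrpl21, with a bacterial counterpart, was lower too, at -0.69 ± 0.16 (adjusted p = 0.000884), with means of 10.19 ± 0.23 and 10.89 ± 0.32. Mrpl35 was the exception, higher in C57BL6/J by 0.86 ± 0.17 (adjusted p = 0.000127). Mrps5 averaged 10.02 ± 0.21 in C57BL6/J and 10.43 ± 0.39 in DBA/2J, a difference of -0.41 ± 0.18 that did not pass the test (adjusted p = 0.114).

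The hybrid B6C3F1/J was compared with the mean of its parents on the control diet, where 1 member was higher and 2 were lower (2.72% and 6.22% of all genes). Mrpl52 was higher in the hybrid by 0.65 ± 0.15 (adjusted p = 0.00334), and by 0.83 ± 0.14 without the arrays of high median. Its hybrid median was 12.05 (10.54 to 12.26), against 10.91 (10.29 to 11.26) in C57BL6/J and 11.42 (10.93 to 12.19) in C3H/HeJ. Mrps23 (-0.66 ± 0.17) and Mrps22 (-0.55 ± 0.16) were lower. Without those arrays 7 were higher and 1 was lower (4.04% and 4.1% of all genes), and the difference of Mrps23 was -0.39 ± 0.14 (adjusted p = 0.0754). The diet effect of the hybrid differed from that of its parents for 0 members in either direction, against 0% and 0.00675% of all genes. At an unadjusted p under 0.05 (limma) 7 were higher and 0 lower, against 4% and 2.98% of all genes.

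After the group means were removed, members varied together from mouse to mouse. Over the 96 arrays the median correlation of 2850 member pairs was 0.44, and 39.3% of the pairs exceeded 0.5, against a median of -0.0045 and 2.35% among pairs of genes taken at a fixed step of 10 through the list of all genes. All pairs share the same arrays, RNA and scaling. The comparison genes were not matched for signal. The median mean signal was 8.14 over all genes and 11.02 over the members. With the array median removed the median was 0.30, against -0.00015 for the comparison pairs. Without the 2 arrays of high median it was 0.28, and no comparison value was computed there. With the array median removed, the closest pair was Mrpl27 with Mrpl20 (0.90). Mrps17 had correlations of -0.74 with Mrps33 and -0.70 with Mrpl1, and 0.85 with Mrps2. Its median correlation with the other members was -0.20, and that of Mrpl51 was lower, at -0.21. Mrpl16, Mrpl17 and Mrpl12 had the highest median correlation with the other members on that scale, 0.52 each. These pairs and genes were picked by their correlations.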

How the data were processed

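Biotin-labelled cRNA from total liver RNA was hybridised to Affymetrix mouse arrays. The authors deposited a linear intensity per probe set, made with MAS5 per the submitters' processing notes, and the values show that each array was scaled to a trimmed mean of 500.001 to 500.005. The MAS5 version and settings were not stated in the sources read here. The authors' intensities were turned into log2 values. Of 45101 probe sets, 64 controls were left out, and 32999 whose signal was at or above the array median on 8 or more of the 96 arrays were kept. The annotation gave 1 symbol to 34945 probe sets, several to 932 and none to 9211. Each gene took its brightest kept probe set, which gave 14816 genes; 59 members reached the array median on all 96 arrays.

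Groups came from the labels. Limma 3.58.1 in R 4.3.3 (lmFit, eBayes with trend and robust variances) fitted 12 group means to 96 arrays; p-values were adjusted by the Benjamini-Hochberg method over 14816 genes, and an adjusted p under 0.05 was a call. SE are those of the fit. The number of arrays limits the precision. Each array is a separate mouse, and the highest correlation of any 2 arrays across genes was 0.951, so no array repeats another. Replicate numbers occur in both diets; only 5 of 48 same-numbered pairs had deviations correlated above 0.1, so numbers were not treated as pairs. On simulated data for the averaged diet effect (14816 genes, 50 changed per size), 28% of changes of 0.3, 64% of 0.6, 94% of 1 and 60% of -0.5 were recovered.

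Members, lists and tests were chosen with earlier results of these data known. Named were the 8 largest rises and falls called for the averaged diet effect (only 6 members fell), the 2 largest each way within a strain, the 4 members of smallest p for the interaction, 8 for strain, and 3 each for C57BL6/J against DBA/2J and for the hybrid, plus Mrpl12, Mrpl3, Mrpl44, Mrps5, Mrps12, Mrps16, Mrps22 and Mrps36; pathway lists give up to 3 members of smallest p. Alternatives were quantile normalization, centring on the 75th percentile, no filter and a stricter filter (48 arrays), the mean of probe sets, eBayes without trend and robust variances, a replicate block, the array median as covariate, and leaving out arrays of median above 8 or CBA/J. Leaving out both together and using the second brightest probe set were added after seeing the data. Figures used Python 3.11.15 and matplotlib 3.10.9.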

Additional observations from a re-analysis of the deposited data

Results flagged for a closer look

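In 228 groups of 8 arrays, formed by 19 named members in 12 groups, 34 had a lowest or highest array set apart from the rest (above Dixon's 95% critical value), where chance alone gives about 1 in 20. B6C3F1/J control replicate 2 accounted for 13 of them, and its array median was 8.66. It was lowest for Mrps28 (9.93), Mrpl48 (9.14), Mrps27 (4.29), Mrpl52 (10.54), Mrpl28 (8.39), Mrpl13 (10.74), Mrpl17 (10.43), Mrpl10 (10.05), Mrps26 (9.10), Mrpl12 (10.86), Mrps12 (9.16) and Mrps16 (10.43), and highest for Mrps36 (11.13). DBA/2J restricted replicate 6, with an array median of 8.29, was lowest for Mrps27 (7.83), Mrpl17 (10.19), Mrpl10 (10.19) and Mrps16 (7.92) and highest for Mrpl44 (11.41). C57BL6/J restricted replicate 2 was highest for Mrps28 (12.61), Mrps5 (10.61), Mrps36 (11.12), Mrpl13 (12.13), Mrpl17 (12.86), Mrps10 (11.85), Mrpl12 (13.88) and Mrps12 (11.97).

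Single arrays stood apart elsewhere. Mrpl48 was low in CBA/J control replicate 2 (10.22), and Mrps27 was low in 129S1/SvImJ control replicate 3 (7.64) and restricted replicate 8 (7.96). Mrpl28 was high in C3H/HeJ control replicate 8 (11.48), and Mrps5 was low in C3H/HeJ control replicate 5 (9.61). Mrps10 was low in DBA/2J control replicate 1 (10.47), Mrps22 was high in 129S1/SvImJ restricted replicate 5 (11.67), and Mrps16 was high in B6C3F1/J restricted replicate 5 (12.42).

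The diet effect differed between strains for 11 members (limma F test). The adjusted p was 3.37e-06 for Mrps23, 4.86e-05 for Mrpl10, 0.00999 for Mrpl46, 0.0108 for Mrpl1, 0.0141 for Mrpl3, 0.0141 for Mrpl51, 0.0189 for Mrps28, 0.0215 for Mrps5, 0.0254 for Mrpl52, 0.0283 for Mrps18a and 0.0447 for Mrps25. None of the 11 passed without CBA/J.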

How the results depend on the processing

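Counts of members called moved by over 1.5 times as follows, and unless stated, the cause was not tested. Calls over all genes also moved between settings. Counts without a share of all genes beside them therefore cannot be read as particular to the members. Quantile normalization gave 1 higher in 129S1/SvImJ, 19 higher and 3 lower in CBA/J, and 4 higher in B6C3F1/J against its parents. Centring on the 75th percentile gave 13 higher and 3 lower for the averaged diet effect, 0 higher in 129S1/SvImJ, 3 higher in CBA/J, 3 higher in DBA/2J and 7 for strain by diet. In CBA/J the median of all genes was 0.31 as deposited, 0.07 after quantile normalization and 0.17 after centring. With the array median as covariate it was 0.14, and 21.3% of all genes rose and 11.5% fell there. The array medians of the diets did not overlap in CBA/J, so that fit cannot tell them from the diet. The stricter filter gave 2 higher in C57BL6/J. The mean of probe sets gave 1 higher in C57BL6/J, 5 higher and 2 lower in DBA/2J, 2 higher in B6C3F1/J, and 2 higher and 5 lower in C57BL6/J against DBA/2J. The array median as covariate gave 34 higher and 3 lower for the averaged diet effect, 2 higher in C57BL6/J, 42 higher and 3 lower in CBA/J, 14 higher in DBA/2J, 1 higher in B6C3F1/J, 20 for strain by diet, 71 for strain on the control diet, 35 lower in C57BL6/J against DBA/2J, and 5 higher and 0 lower in B6C3F1/J against its parents. Without the arrays of median above 8, 11 were lower for the averaged diet effect, 5 higher and 1 lower in C57BL6/J, 1 higher and 1 lower in C3H/HeJ, 21 higher and 20 lower in CBA/J, 15 higher in DBA/2J, 2 higher in B6C3F1/J, 25 for strain by diet, 27 lower in C57BL6/J against DBA/2J, and 7 higher and 1 lower in B6C3F1/J against its parents. Without CBA/J, 2 were lower for the averaged diet effect, 2 higher in B6C3F1/J and 0 passed for strain by diet. Without CBA/J and those arrays, 5 were higher and 1 lower in C57BL6/J, 1 higher and 1 lower in C3H/HeJ, 15 higher in DBA/2J, 2 higher and 1 lower in B6C3F1/J, 1 passed for strain by diet, 27 were lower in C57BL6/J against DBA/2J and 8 higher in B6C3F1/J against its parents. The second brightest probe set gave 11 higher for the averaged diet effect, 3 higher and 2 lower in DBA/2J, 2 higher in B6C3F1/J, 4 higher and 5 lower in C57BL6/J against DBA/2J, and 4 lower in B6C3F1/J against its parents.

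Among the members named for the averaged diet effect or always named, averaged differences changed sign for Mrps12 after centring (-0.00072), without the arrays of median above 8 (-0.033) and without CBA/J and those arrays (-0.034). With the mean of probe sets they changed sign for Mrpl3 (-0.026) and Mrpl44 (-0.064), and with the second brightest probe set for Mrpl13 (-0.20), Mrpl17 (0.11), Mrps10 (0.074) and Mrpl44 (-0.26). Of the other called members, Mrpl57 and Mrps25 changed sign with both of these settings and Mrpl38 with the mean. Mrpl1 and Mrps23, not called on average, were at -0.17 and -0.19 with all strains and at 0.034 and 0.056 without CBA/J. With the replicate number as a block, 20 members rose and 6 fell for the averaged diet effect, 11 passed for strain by diet and 48 for strain on the control diet. In single strains the block ended the calls of Mrps35 in 129S1/SvImJ (adjusted p = 0.0532) and Mrpl33 in DBA/2J (adjusted p = 0.0512), and it changed no other strain call and no averaged call. In the simulated data averaged changes of 0.3 were recovered in 28% of genes, so smaller differences can be missed. The changed genes were drawn from all genes tested, whose median mean signal was 8.14, against 11.02 for the members. Fewer genes were changed there than were called in the real data. The 28% is therefore not the recovery for members.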
